A study of Mus musculus with 4 samples.

Results

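The 4 tissue inhibitors of metalloproteinases (TIMPs), Timp1, Timp2, Timp3 and Timp4, were followed across the cell classes of tdTomato-sorted mouse spinal cord cells, with and without injury. They were taken by symbol from the 32287 gene features of the deposited matrices, and all 4 were present. The family was chosen with its values in these data known, above all the Timp1 values of injured and uninjured astrocyte-like cells, and its members were selected on these values, so the levels below are a description and carry no test. All mice carried Cx30-tdTomato, in which the promoter of the gap junction gene Cx30 drives an inducible Cre recombinase that switches on a tdTomato reporter. All of them had received tamoxifen and a pool of enhancer adeno-associated viruses in the blood. The injured group was sampled at 3 days after a spinal cord injury and the uninjured group was not injured. Mice were 8 to 12 weeks old when they entered the study. Segments of 5 mm around the lesion or at the same level are described for the study's separate profiling of nuclei. No length is given for the sorted cells used here. For its sequencing experiments as a whole, the study describes pools of both sexes in equal numbers, or 1 to 2 animals per sex. Each condition had 1 gene expression library, so differences between conditions include differences between animals, batches and recovery, and these cannot be told apart.

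TIMPs are small secreted proteins that bind the active site of matrix metalloproteinases (MMPs) and block it, and some of them also inhibit the related ADAM and ADAMTS proteases. Timp1 is the member best known for being induced by cytokines and tissue damage. Timp2 inhibits MMPs and also takes part in the activation of MMP2 at the cell surface together with MMP14. Timp3 stays bound to the extracellular matrix and has the broadest range, which includes ADAM17 and aggrecan-cleaving ADAMTS proteases. Timp4 has a narrow tissue range that includes the heart and the brain.

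Timp1 (ENSMUSG00000001131) lay on chromosome X at 20870166 to 20874735 on the plus strand (GRCm38, GENCODE M21). Timp2 (ENSMUSG00000017466) lay on chromosome 11 at 118301069 to 118355740 on the minus strand. Timp3 (ENSMUSG00000020044) lay on chromosome 10 at 86300372 to 86349506 on the plus strand. Timp4 (ENSMUSG00000030317) lay on chromosome 6 at 115241892 to 115252205 on the minus strand. Timp1, Timp3 and Timp4 were each held whole within a synapsin gene on the opposite strand, Syn1, Syn3 and Syn2 in this order. No exon of Syn1 fell inside Timp1, while exons of Syn3 and Syn2 overlapped exons of Timp3 and Timp4. Whether the counting used strand is not given in the sources used here, so reads from these overlapping exons could not be assigned to a strand.

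The 250 bases before the RefSeq start of Timp1 and Timp4 are shown because these members had the most and the least different levels between the conditions in astrocyte-like cells (8.18 and -0.14 on the log2 scale, below). The windows of Timp2 and Timp3 reached into their GENCODE gene models and were left out. Sequences are from RefSeq (GRCm38.p6), written on the gene's strand, and capitals mark matches of the letters AGGAAG (an ETS-type motif) and GGGCGG (a GC box) on either strand.
Timp1, chrX:20869916-20870165, plus strand: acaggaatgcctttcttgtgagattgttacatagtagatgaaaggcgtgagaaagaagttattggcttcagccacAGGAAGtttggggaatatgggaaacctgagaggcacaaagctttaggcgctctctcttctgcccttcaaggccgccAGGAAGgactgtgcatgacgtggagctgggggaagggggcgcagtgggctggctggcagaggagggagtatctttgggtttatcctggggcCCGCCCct
Timp4, chr6:115252206-115252455, minus strand: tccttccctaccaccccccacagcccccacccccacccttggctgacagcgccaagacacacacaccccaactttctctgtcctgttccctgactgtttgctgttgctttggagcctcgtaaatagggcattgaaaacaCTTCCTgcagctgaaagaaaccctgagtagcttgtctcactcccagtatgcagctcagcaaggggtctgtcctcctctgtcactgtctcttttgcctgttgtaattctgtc
In the full windows of 300 bases, which also hold 50 bases after the start, Timp1 had AGGAAG at -175, -99 and 41 from the start. These letters were in 35.4% of 32851 RefSeq windows of this length. Timp1 also had the AP-1-like letters TGAGTAA at 27, which 2.68% of windows had. The letters GGGCGG were found in Timp1, Timp2 and Timp3 and in 35.7% of windows. The letters TGAGTCA (AP-1), TTCNNNGAA (STAT) and TATAAA matched none of the 4 windows, against 5.20%, 8.30% and 13.6% of all windows.

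After filtering, 879 injured and 4159 uninjured cells remained, with medians of 6816 and 3343 gene UMIs per cell. Classes were named from marker genes of clusters made without the 4 TIMP genes, and 13 clusters gave 7 classes. Astrocyte-like cells were 384 of the injured (43.7%) and 2892 of the uninjured cells (69.5%). The injured astrocyte-like cells were mostly in cluster 3, led by Tgm1 and Gfap, which held 318 of them (82.8%) and only 11 uninjured cells (0.380%). A further 56 injured (6.37%) and 1066 uninjured cells (25.6%) had astrocyte markers but neuron genes such as Nefl and Snap25 among their leading genes and stayed unnamed. By Xist and Y-linked genes, 250 injured cells were scored female and 315 male, against 2 female and 2770 male cells without injury, with the rest unscored. Sex thus differed between the libraries, although the study describes animals of both sexes in each condition. Its part in the results below was not tested beyond the male cells given beside them. The files shared 7 cell barcodes. Levels are CPM, the UMIs of a gene per 1000000 gene UMIs summed over a class, with exact Poisson 95% intervals. Ratios have exact conditional binomial 95% intervals, and all intervals cover counting error only.

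Timp1 had at most 3 UMIs in each uninjured class and was high in injured fibroblast-like and astrocyte-like cells. In astrocyte-like cells the injured library had 701 Timp1 UMIs, or 316 CPM (293 to 340.0), and the uninjured library had 1 UMI, or 0.0937 CPM (0.00237 to 0.522). The log2 ratio with 1 CPM added to both sides was 8.18, and the ratio without it was 3369 with a lower bound of 603. This was the highest log2 ratio of the 10000 genes at 10 CPM or more in either condition, of which 14.9% were at least 2-fold higher and 7.72% at least 2-fold lower in the injured library. In fibroblast-like cells Timp1 was at 819 CPM (755 to 888) in the injured and 9.13 CPM (1.88 to 26.7) in the uninjured library, a ratio of 89.7 (30.5 to 436). The 3 uninjured UMIs lay in a part of the class that had no injured counterpart (below), and the 47 remaining uninjured cells had 0. Astrocyte markers summed to 1062 CPM in injured fibroblast-like cells, against 11004 CPM in injured astrocyte-like cells, and all 8 were found there. Ependymal-like cells had 33.9 CPM (25.7 to 43.9) in the injured library and 0 UMIs in 31 uninjured cells, which allowed up to 18.9 CPM, so the level was at least 1.79-fold higher by this floor of 3 UMIs over the group. The exact interval of the ratio had a lower bound of 1.41. With 1 CPM added to both sides the log2 ratio was 5.12, past 2-fold. Both lower bounds lay under 2-fold, so a difference of 2-fold was not assured by the counts. Of the tested genes in this class, 12.2% were past 2-fold higher and 16.2% lower by the same measure (28.4% together), and the other 3 members were not.

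The remaining classes held few Timp1 UMIs. Endothelial-like cells had 21.4 CPM (12.2 to 34.7) and 9.43 CPM (0.239 to 52.6), injured first, and the interval of the ratio spanned 1. Microglia or macrophage-like cells had 10.0 CPM (6.05 to 15.7) and 17.0 CPM (2.06 to 61.5), the latter from 2 UMIs in 1 cell. Oligodendrocyte precursor (OPC)-like cells had 9.28 CPM in the injured library and were too few in the uninjured library (14 cells) to be used. The injured order was thus fibroblast-like, astrocyte-like, ependymal-like, endothelial-like, microglia or macrophage-like and OPC-like cells. Fibroblast-like cells were 2.60-fold (2.32 to 2.90) above astrocyte-like cells, and these were 9.32-fold (7.11 to 12.4) above ependymal-like cells. Ependymal-like and endothelial-like cells, and the last 2 classes, did not differ beyond their counting intervals.

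**Figure D1:**
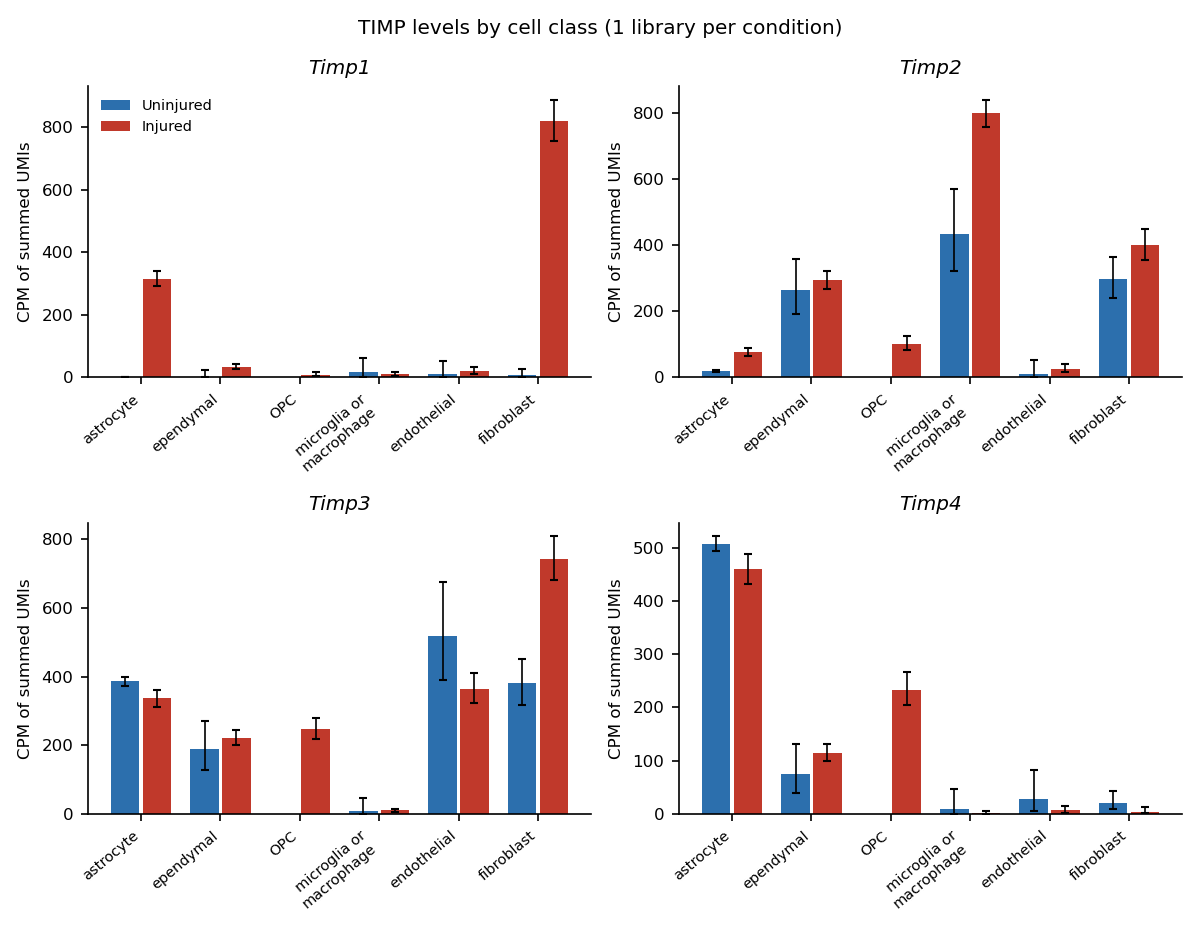
Level of each TIMP gene (CPM of summed UMIs, linear axis from 0) in 6 cell classes, uninjured in blue and injured in red, with exact Poisson 95% intervals as error bars and 1 library per condition. OPC-like cells have no uninjured bar because they were under 25 cells, Timp1 bars rise above 100 CPM only in injured astrocyte-like and fibroblast-like cells (316 and 819 CPM), and Timp4 is highest in astrocyte-like cells of both libraries.

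Timp1 was unevenly spread over the injured astrocyte-like cells. A Timp1 UMI was found in 153 of 384 cells (39.8%, exact Clopper-Pearson interval 34.9 to 44.9%), and in 1 of 2892 uninjured cells (0.0346%, 0.000875 to 0.193%). The lowest and the median cell had 0 UMIs and the highest had 66. The tenth of cells with the most Timp1 UMIs, 39 cells, held 71.6% of them. After thinning each cell to 1000 gene UMIs, which left 352 injured and 2827 uninjured cells, the shares were 17.9% (14.0 to 22.3%) and 0% (0 of 2827 cells, which allows up to 0.106%). For comparison, 6.98% of injured microglia or macrophage-like cells had a Timp1 UMI although their median depth of 13386 gene UMIs was above the 3958 of injured astrocyte-like cells. In injured fibroblast-like cells, 36 of 43 (83.7%) had a Timp1 UMI, with a median of 5 and a highest value of 119 UMIs, and 5 cells held 58.2% of the UMIs. Without the cells of the highest Scrublet scores, a doublet measure, the fibroblast-like level stood above the astrocyte-like one by 0.41 on the log2 scale instead of 1.37. Cells were clustered anew in that setting, and 25 instead of 43 injured cells were then fibroblast-like. The 0.41 thus rests on classes drawn anew as well as on cells removed. In male cells, which were 12 in the fibroblast-like class, the value was 0.59.

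Injured cells of both sexes held Timp1, which is X-linked. Male astrocyte-like cells had 265 CPM (234 to 298) over 127 cells and female ones 398 CPM (350.4 to 449) over 73 cells. Timp2, Timp3 and Timp4, which are not X-linked, were also higher in the female cells. Timp2 was at 95.9 CPM (73.5 to 123) in female and 55.1 CPM (41.6 to 71.5) in male cells. Timp3 was at 452 (401 to 507) and 328 CPM (293 to 365), and Timp4 at 512 (458 to 570.3) and 410.2 CPM (372 to 452). The cause of these differences was not tested. Male ependymal-like cells had 31.3 CPM (20.5 to 45.9) and female ones 36.0 CPM (23.5 to 52.8). In male uninjured astrocyte-like cells Timp1 was at 0.122 CPM, so the contrast was also found within male cells. Lcn2, an acute phase gene of reactive astrocytes, was found in 59 injured astrocyte-like cells, of which 37 (62.7%) also had a Timp1 UMI, and these were 24.2% of the cells with a Timp1 UMI. Cells with a Timp1 UMI were deeper (median 5133 gene UMIs) than those without (median 3337).

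**Figure D2:**
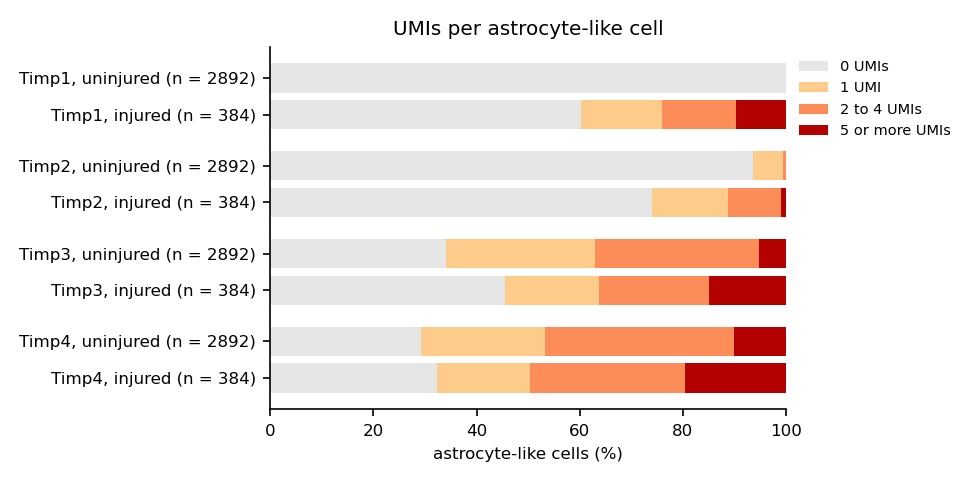
Share of astrocyte-like cells (percent, x axis) with 0, 1, 2 to 4 and 5 or more UMIs of each TIMP gene, in 2892 uninjured and 384 injured cells, not thinned for depth. Timp1 was found in 39.8% of injured and 0.0346% of uninjured cells, while Timp3 and Timp4 were found in 54.4% to 70.8% of the cells of both libraries.

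Timp2 was led by microglia or macrophage-like cells in both libraries, and it was also higher in injured than in uninjured astrocyte-like cells, at a lower level. Microglia or macrophage-like cells had 799.8 CPM (760.0 to 841) in the injured and 434 CPM (323 to 571) in the uninjured library, a ratio of 1.84 (1.39 to 2.49). No member at 10 CPM or more was past 2-fold in either direction in this class, where 18.0% of the tested genes were higher and 22.3% lower by 2-fold or more (40.3% together). A median injured cell had 6 Timp2 UMIs and the highest had 130. Injured cells with a UMI of the microglial genes P2ry12 or Cx3cr1 had 848 CPM (804 to 894) over 103 cells, and the 26 cells with neither had 487 CPM (404 to 581). In this class the markers of neutrophils summed to 556 CPM with injury (4 of 6 found) and 213 CPM without (1 of 6 found), and their part in the Timp2 difference was not tested.

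Fibroblast-like cells had 401 CPM of Timp2 (356 to 449.6) in the injured and 298 CPM (242 to 364) in the uninjured library, a ratio of 1.34 (1.06 to 1.71), which was not found within the cluster that both libraries share (described with Timp3 below). Ependymal-like cells had 294 CPM (268 to 321) and 265 CPM (191 to 358), and the ratio of 1.11 had an interval that spanned 1 (0.808 to 1.56). OPC-like cells of the injured library had 102 CPM (83.0 to 124). Endothelial-like cells were lowest, with 26.7 CPM (16.3 to 41.2) and 9.43 CPM (0.239 to 52.6). By their log2 ratios with 1 CPM added, Timp1 (1.10) and Timp2 (1.41) were past 2-fold higher and Timp4 (-1.93) past 2-fold lower in endothelial-like cells, each on 1 to 3 uninjured UMIs and with a ratio interval that spanned 1, against 14.7% and 16.7% of tested genes. In the injured library each class differed from the next in this order beyond counting error, from microglia or macrophage-like over fibroblast-like, ependymal-like, OPC-like and astrocyte-like to endothelial-like cells. In the uninjured library fibroblast-like and ependymal-like cells did not differ beyond it, and neither did astrocyte-like and endothelial-like cells.

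In astrocyte-like cells Timp2 was at 77.0 CPM (65.9 to 89.5, 171 UMIs) in the injured and 19.1 CPM (16.6 to 21.9, 204 UMIs) in the uninjured library, a ratio of 4.03 (3.27 to 4.96) and a log2 ratio of 1.96. A Timp2 UMI was found in 26.0% of injured and 6.43% of uninjured cells, and after thinning in 7.10% and 2.05%. The 2 members past 2-fold higher in this class were Timp1 and Timp2, against 14.9% of the 10000 tested genes, and none of the 4 was past 2-fold lower. Markers of microglia or macrophages summed to 50.4 CPM in injured and 8.06 CPM in uninjured astrocyte-like cells, with 8 of 8 found in both, against 20136 CPM in injured microglia or macrophage-like cells, and their part in the Timp2 difference was not tested. Within male cells Timp2 was at 55.1 CPM (41.6 to 71.5) in the injured and 17.0 CPM (14.3 to 20.1) in the uninjured library. Of the 171 injured UMIs, 170 were in cluster 3, and outside it 1 UMI was left, so that the log2 ratio was -2.05 without that cluster.

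**Figure D3:**
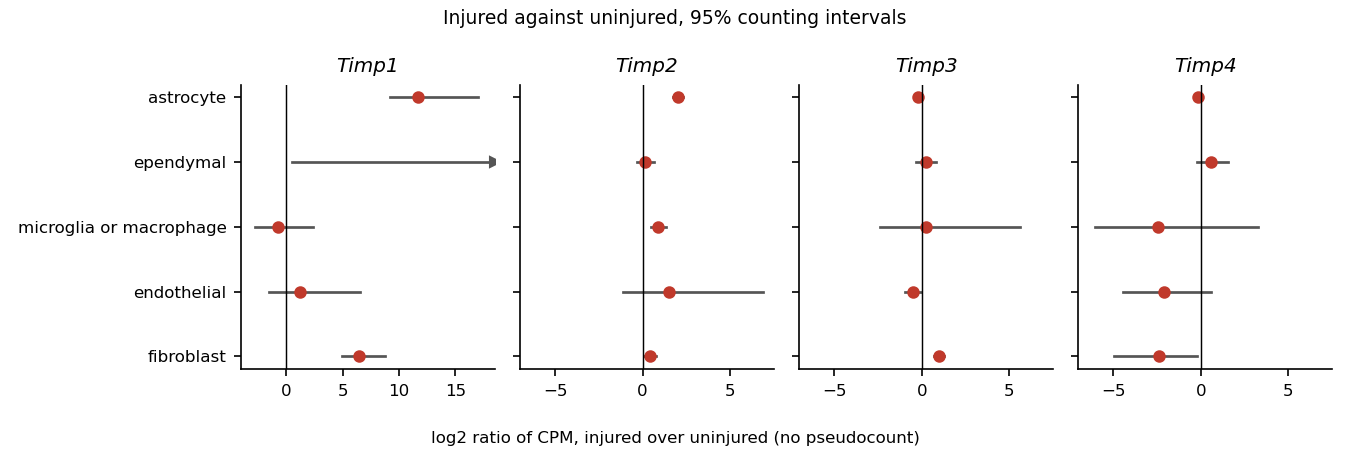
Log2 ratio of CPM, injured over uninjured, without a pseudocount, for each TIMP gene in the 5 classes with 25 cells or more in both libraries, with points for the ratio and lines for the exact conditional binomial 95% interval. The Timp1 panel has a wider axis than the others and an arrow for the ependymal-like interval, which has no upper bound. The lines of Timp1 in astrocyte-like, fibroblast-like and ependymal-like cells lie to the right of 0.

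Timp3 was between 189 and 743 CPM in the classes used here except microglia or macrophage-like cells, which had the lowest level (10.0 and 8.51 CPM, injured first). Fibroblast-like cells had 743 CPM (681 to 809) in the injured and 381 CPM (317 to 453) in the uninjured library, a ratio of 1.95 (1.60 to 2.39). The uninjured cells of this class were not uniform. At a Leiden resolution of 1.0, 48 of the 95 formed a cluster with 0 injured cells, led by Smoc2, Ebf2 and Myoc, in which Timp3 was at 192 CPM (136 to 263) and Timp2 at 157 CPM (106 to 222). The other 47 clustered with all 43 injured cells and had 667 CPM (534 to 822) of Timp3 and 513 CPM (398 to 652) of Timp2. Within this shared cluster the ratio of injured to uninjured cells was 1.11 (0.887 to 1.41) for Timp3 and 0.780 (0.596 to 1.03) for Timp2, and both intervals spanned 1. The upper UMI limit also mattered, since 38 of the 40 injured cells it removed were fibroblast-like when cells were not filtered. With them, 81 injured cells had 391 CPM (372 to 411) of Timp3, a ratio of 1.03 (0.856 to 1.24), and 285 CPM (268 to 302) of Timp2, a ratio of 0.954 (0.776 to 1.19). Injured Timp1 was then at 904 CPM (875 to 935). Endothelial-like cells went the other way, with 365 CPM (323 to 410.4) and 519 CPM (391 to 675), a ratio of 0.703 (0.524 to 0.957). Astrocyte-like cells had 337 CPM (313 to 362) and 386 CPM (374 to 398), a ratio of 0.873 (0.807 to 0.944). None of these was past 2-fold, against 31.6% of genes in either direction in fibroblast-like, 31.3% in endothelial-like and 22.7% in astrocyte-like cells. Ependymal-like cells had 222 CPM (200.3 to 246) and 189 CPM (128 to 270.2), with a ratio interval of 0.809 to 1.77. OPC-like cells of the injured library had 248 CPM, of which 1 cell gave 96 of 240 UMIs.

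Over whole classes of filtered cells, the order of Timp3 levels changed at its top between the libraries. Injured fibroblast-like cells were 2.04-fold (1.76 to 2.37) above endothelial-like cells, which did not differ from astrocyte-like cells beyond counting error (1.08, 0.939 to 1.24). In the uninjured library endothelial-like cells stood first, 1.34-fold (1.01 to 1.75) above astrocyte-like cells, and the latter did not differ from fibroblast-like cells beyond it (1.01, 0.849 to 1.22). Uninjured fibroblast-like cells of the shared cluster alone had 667 CPM (534 to 822), against 519 CPM (391 to 675) in endothelial-like cells. Without the cell filter, injured fibroblast-like cells had 391 CPM (372 to 411), against 365 CPM (323 to 410.4) in filtered endothelial-like cells. The change at the top thus depended on which fibroblast-like cells were counted. In microglia or macrophage-like cells 5 of 129 injured cells (3.88%) had a Timp3 UMI, with 14 of the 19 UMIs in 1 cell. The median injured fibroblast-like cell had 6 Timp3 UMIs and the median uninjured one 0, at median depths of 11336 and 3073 gene UMIs. After thinning, 45.0% (29.3 to 61.5%) of injured and 26.1% (17.3 to 36.6%) of uninjured fibroblast-like cells had a Timp3 UMI, with overlapping intervals. The fibroblast-like level over the astrocyte-like level in injured cells, 1.14 on the log2 scale, fell to 0.22 when cells were not filtered on UMIs. It rose to 1.76 without the highest Scrublet scores. Cells were clustered anew in both settings, so the classes changed as well.

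Timp4 was highest in astrocyte-like cells in both libraries. Astrocyte-like cells had 459 CPM (431 to 488, 1019 UMIs) in the injured and 507 CPM (494 to 521, 5409 UMIs) in the uninjured library, a ratio of 0.905 (0.846 to 0.968). Of the injured UMIs, 937 were in cluster 3, and without it the log2 ratio was -0.73 instead of -0.14. A Timp4 UMI was found in 67.7% of injured and 70.8% of uninjured cells, and after thinning in 34.1% (29.1 to 39.3%) and 38.0% (36.2 to 39.8%). In the injured library OPC-like cells followed with 233 CPM (204 to 266), 1.97-fold (1.70 to 2.28) below astrocyte-like cells, and ependymal-like cells with 115 CPM (99.1 to 132). Uninjured ependymal-like cells had 75.7 CPM (39.1 to 132), and their ratio interval of 0.848 to 2.98 spanned 1. Endothelial-like, fibroblast-like and microglia or macrophage-like cells had 3 to 5 Timp4 UMIs each in the injured library, or 6.68, 4.16 and 1.59 CPM, and 28.3, 21.3 and 8.51 CPM in the uninjured library. In fibroblast-like cells this was a ratio of 0.195 (0.0326 to 0.855) from 3 and 7 UMIs, so that Timp1 was past 2-fold higher and Timp4 past 2-fold lower there, against 14.6% and 17.0% of tested genes. Within the cluster that both libraries share, the Timp4 ratio was 0.181 from 3 UMIs in each library, and its interval (0.0242 to 1.35) spanned 1. The share of microglia or macrophage-like cells with a Timp4 UMI was 2.33% in the injured library, with a median depth of 13386 gene UMIs.

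Among the astrocyte-like clusters, Timp1 and Timp2 followed the injured cluster and Timp4 varied among the uninjured ones. Timp1 was at 350.3 CPM (325 to 378) in the 318 injured cells of cluster 3, at 106 CPM (60.5 to 172) in the 25 injured cells of cluster 10, led by Hopx, and at 0 UMIs in the 33 injured cells of cluster 4, led by Egfem1, which allowed up to 39.1 CPM. The 11 uninjured cells of cluster 3 had 0 Timp1 UMIs (up to 38.9 CPM) but 7 Timp2 UMIs, or 90.8 CPM (36.5 to 187), close to the 87.1 CPM (74.5 to 101) of the injured cells of that cluster. In the other uninjured clusters Timp2 was between 16.1 and 19.9 CPM. Timp4 in uninjured cells was at 758 CPM (718 to 800.0) in cluster 10, 592 CPM (565 to 619) in cluster 12, led by Hsd11b1, 464 CPM (442 to 487) in cluster 5, led by Gabbr2, and 233 CPM (213 to 256) in cluster 4. The intervals of these 4 Timp4 levels did not overlap, and cluster 4 also had the lowest median depth, 2219 gene UMIs against 3513 to 3968 in the others. Injured cells of the same clusters had less Timp4. Those of cluster 10 had 437 CPM (338 to 556), a ratio of 0.576 (0.443 to 0.738), and those of cluster 4 had 91.2 CPM (36.7 to 188), a ratio of 0.391 (0.156 to 0.812). Clusters 5 and 12 held 5 and 3 injured cells, at 255 and 162 CPM. The injured cells of cluster 3 were at 479.8 CPM (449.6 to 512), and the 11 uninjured ones at 402 CPM, with a ratio interval of 0.835 to 1.77. Timp3 varied less in uninjured cells, from 352 CPM (332 to 374) in cluster 12 to 425 CPM (404 to 447) in cluster 5. Since clusters were made from genes of the same cells, these differences are descriptions.

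**Figure D4:**
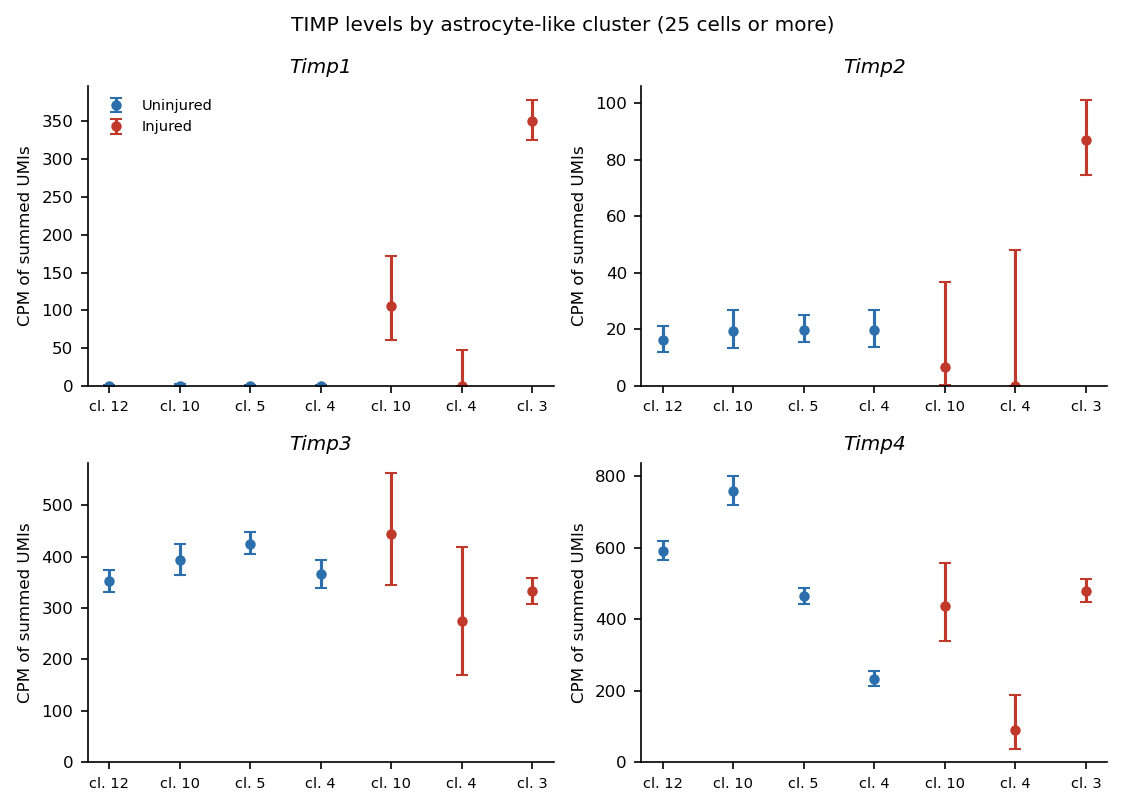
Level of each TIMP gene (CPM of summed UMIs, linear axis from 0) in astrocyte-like clusters with 25 cells or more, uninjured in blue and injured in red, with exact Poisson 95% intervals as bars. Timp1 and Timp2 are highest in injured cluster 3 (350.3 and 87.1 CPM), and uninjured Timp4 runs from 233 CPM in cluster 4 to 758 CPM in cluster 10.

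Few astrocyte-like cells held UMIs of all 4 members. In the injured library 40 of 384 cells (10.4%) had a UMI of all 4, 80 (20.8%) of 3, and 55 (14.3%) of none. In the uninjured library no cell of 2892 had all 4, 118 (4.08%) had 3, and 376 (13.0%) had none. Only 1 uninjured cell had a Timp1 UMI, so at most 1 could hold all 4, and this contrast restates the Timp1 levels. These counts were not thinned for depth. In uninjured cells 2 members was the commonest number (48.1% of cells). Among injured cells with a Timp1 UMI, Timp2 was at 97.4 CPM (80.6 to 117), against 53.0 CPM (39.8 to 69.1) in those without. Timp3 was also higher in the cells with a Timp1 UMI, at 377 CPM (343 to 414) against 289 CPM (257 to 324). Timp4 was at 476 CPM (437 to 516) and 439 CPM (399.7 to 482) in the same cells, with overlapping intervals.

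In astrocyte-like cells the synapsin genes around the TIMP genes had other levels and ratios than the genes they hold. Syn2 and Syn3 were, like Timp4 and Timp3, lower in the injured library. Syn2, a synaptic vesicle protein gene that spans Timp4, was at 129.7 CPM in injured and 292 CPM in uninjured astrocyte-like cells, a ratio of 0.444 (0.393 to 0.502), while Timp4 had a ratio of 0.905. Syn3, which spans Timp3, was at 25.2 and 41.9 CPM, a ratio of 0.602 (0.448 to 0.796). Syn1, which spans Timp1, was below 10 CPM in both libraries (14 and 64 UMIs, injured first), and its ratio was 1.05 (0.544 to 1.89), against 3369 for Timp1. In ependymal-like cells Syn2 was also lower in the injured library, at 20.8 against 69.4 CPM, while the ratio interval of Timp4 spanned 1. Like Timp4, Syn2 was higher in astrocyte-like than in ependymal-like cells of both libraries. It was at most 9.43 CPM in endothelial-like, fibroblast-like and microglia or macrophage-like cells. The part of reads from the overlapping exons was not tested.

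Of the proteases that TIMPs inhibit, the listed ADAM and ADAMTS genes reached 10 CPM in astrocyte-like cells more often than the listed MMP genes. The gelatinase gene Mmp9, the collagenase genes Mmp8 and Mmp13, the stromelysin genes Mmp3 and Mmp10 and the macrophage elastase gene Mmp12 had no UMI in the astrocyte-like cells of either library. Of 9 secreted MMP genes, 2 reached 10 CPM. Mmp19 was at 21.6 CPM with injury against 3.84 CPM without (log2 ratio 2.22), and Mmp28 was at 15.8 and 16.1 CPM. Of 6 membrane MMP genes, Mmp14, the partner of Timp2 in the activation of MMP2, was at 72.5 and 69.0 CPM, and Mmp16 was at 15.8 and 5.72 CPM (log2 ratio 1.32). These lists had 1 gene each past 2-fold higher and none lower, against 14.9% and 7.72% of all tested genes, and medians of 1.10 and 0.70 over the genes at 10 CPM or more, against 0.038 over all tested genes.

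Of 7 ADAM genes, 5 reached 10 CPM in astrocyte-like cells and 2 of them were past 2-fold higher and 0 lower, against 14.9% and 7.72% of tested genes. Adam12 was at 47.3 against 9.18 CPM (log2 ratio 2.25) and Adam15 at 51.3 against 21.9 CPM (1.19). Adam17, the sheddase of tumour necrosis factor that Timp3 inhibits, was at 31.5 and 27.3 CPM, and Adam10 and Adam9 had log2 ratios of -0.38 and 0.071. Of 8 ADAMTS genes, 5 reached 10 CPM, and 2 were past 2-fold higher and 0 lower, against the same 14.9% and 7.72%. These were Adamts1, at 54.9 against 8.34 CPM (log2 ratio 2.58), and Adamts5, an aggrecanase, at 59.0 against 17.7 CPM (1.68). Adamts20, Adamts10 and Adamts9 had log2 ratios of 0.74, 0.21 and -0.35. Genes of these families outside the lists, named after their values were seen, included some that were past 2-fold lower with injury. Adam11 was at 7.66 against 26.7 CPM (log2 ratio -1.68), Adamts12 at 16.7 against 63.4 CPM (-1.87) and Adamts6 at 28.8 against 78.0 CPM (-1.40).

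Among 7 genes for TIMP receptors, partners and other inhibitors, 5 reached 10 CPM in astrocyte-like cells and 2 were past 2-fold higher and 0 lower, against 14.9% and 7.72% of tested genes. Cd63, a tetraspanin that binds Timp1 at the cell surface, was at 1207 CPM with injury against 426 CPM without (log2 ratio 1.50). A2m, a broad protease inhibitor, was at 184 and 34.5 CPM (2.38). Itgb1 was just under 2-fold, at 124 and 62.2 CPM (0.99), and Lrp1, an endocytic receptor for TIMPs and proteases, had a log2 ratio of 0.41. Reck, a membrane-anchored MMP inhibitor, was at 19.8 and 31.7 CPM (-0.65). In fibroblast-like cells, the class with the highest injured Timp1 level, 3 of the 4 secreted MMP genes at 10 CPM or more were past 2-fold higher and 1 lower, against 14.6% and 17.0% of tested genes (31.6% together). The uneven make-up of the class described for Timp3 holds for these counts too, and its part in them was not tested. In these cells A2m was lower in the injured library, at 129 against 432 CPM.

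**Figure D5:**
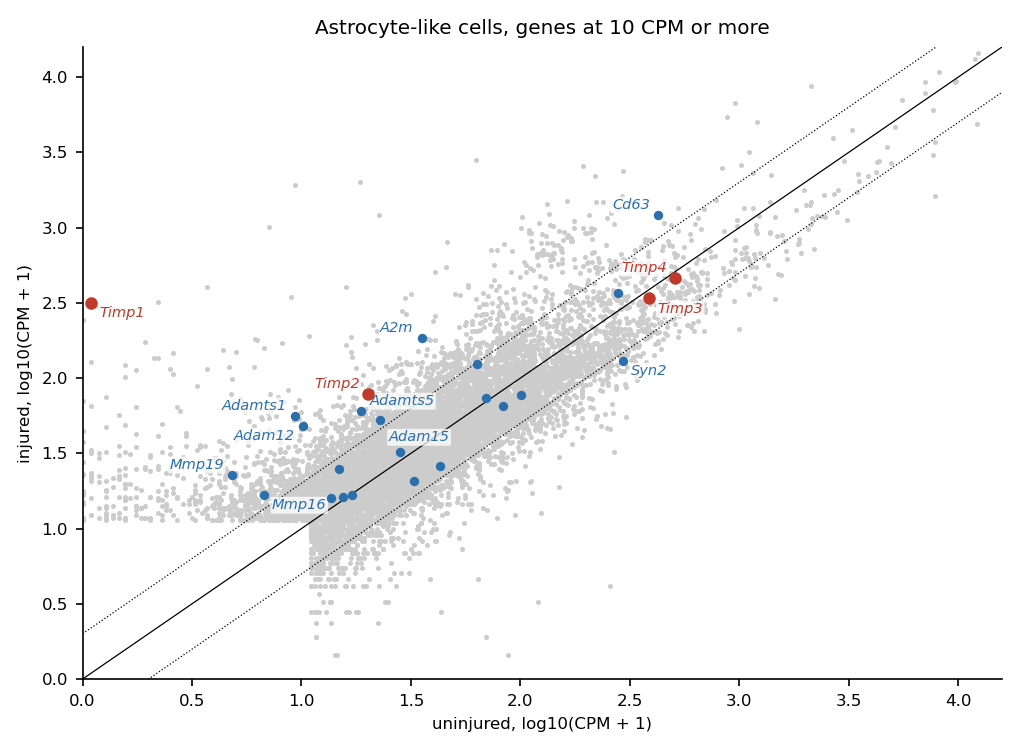
Levels of 10000 genes at 10 CPM or more in astrocyte-like cells of either library, as log10(CPM + 1), uninjured on the x axis and injured on the y axis, with TIMP genes in red and the other list genes in blue, those past 2-fold named. The solid line marks equal levels and the dotted lines 2-fold, and Timp1 stands at the upper left while Timp3 and Timp4 lie near the solid line.

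The TIMP genes had different patterns over the 11 groups of class and condition with 25 cells or more. Pearson's r of log2(CPM + 1) between members was 0.220 for Timp1 and Timp2, 0.417 for Timp3 and Timp4, and -0.558 for Timp2 and Timp3. Over 8706 genes that reached 50 CPM in any group, the pattern of Timp1 was most like that of Tnfrsf12a (0.843), Ilk (0.832), Esd (0.812), Mydgf (0.808) and Mrpl12 (0.806). For Timp2 these were Tent5a (0.945), Runx1 (0.938), Tmem106a (0.927), Spg21 (0.916) and Cers6 (0.911). For Timp3 they were Rbfox2 (0.974), Ghr (0.974), Tcf7l1 (0.971), Parva (0.969) and Stard13 (0.960), and for Timp4 they were Ctnnd2 (0.974), Slc25a23 (0.971), Ptprz1 (0.965) and Scg3 (0.965). The 11 groups come from 2 libraries and differ in depth, and these values are descriptions over groups, with no test.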

How the data were processed

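The authors deposited raw UMI counts of cells called before deposit, 1 matrix per condition, from 10x 3′ v3.1 libraries. Per the file headers, Cell Ranger 7.1.0 made them, whereas the submitters' processing notes give version 8.0.1 and mm10. Barcode features and the barcode libraries were not used here. Gene positions were taken by identifier from GENCODE M21 (GRCm38), which matched 32235 of 32285 Ensembl identifiers (99.8%).

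After the study's filter, cells stayed in with over 500 and under 50000 gene UMIs, which removed 40 injured cells, 38 of them fibroblast-like by the clustering without a filter, and 0 uninjured cells. Each cell was scaled to 10000 UMIs, log transformed and standardised per gene. Clusters came from 2000 variable genes (TIMP genes and added transgene sequences left out), 15 components and 15 neighbours at a Leiden resolution of 0.5, in scanpy 1.11.5 with igraph 0.11.9 and Python 3.11.15. Uneven depth per cell can move cells between clusters. A cluster took the name of the class with the highest mean marker score (above 0.2), given 3 or more markers in 10% of its cells or more, and unless another class led it in markers among the 10 leading genes, counted when found in at least 25% of cells. The 25% was set after the clusters were seen: at 10%, the mural marker Tagln left cluster 3 unnamed. Scrublet marked 2 injured and 0 uninjured cells, too few for a working call, so no doublets were removed. A cell with Xist and without Y-linked UMIs (Uty, Kdm5d, Eif2s3y, Ddx3y) was scored female, and the reverse male.

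UMIs were summed per class and library, and classes with under 25 cells in a library, mural-like cells among them, were left out. With 1 library per condition no test was possible. The ratio step was run on simulated Poisson sums for astrocyte-like cells with 200 of 9239 genes changed 4-fold. All were recovered in direction (100.0%) and 95.8% of intervals held the true ratio. The intervals assume such counts, so this checked the calculation only. It did not cover the uneven spread of UMIs over cells or differences between libraries. Alternatives covered the cell filter, resolution, doublet scores, sex, scaling, pseudocount and gene filter. Named genes were the 4 members, the genes of 6 lists (40 genes) at 10 CPM or more in astrocyte-like cells, and the 5 genes most like each member (1 of those of Timp4 is not reported here); genes with no UMI, Syn1, ADAM and ADAMTS genes outside the lists and genes of other classes were named after their values were seen. The members and lists were chosen with earlier results of these data known.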

Additional observations from a re-analysis of the deposited data

How the results depend on the processing

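No paired analysis was possible because only 1 library stood for each condition. In astrocyte-like cells 14 alternatives were computed for each member's log2 ratio of injured over uninjured levels (main values 8.18, 1.96, -0.20 and -0.14 for Timp1 to Timp4). Of these, 11, 12, 13 and 11 stayed within the counting intervals set for this comparison. These were 7.59 to 8.41, 1.54 to 2.36, -0.34 to -0.048 and -0.27 to -0.016, for Timp1 to Timp4. The exact ratio intervals of Timp2, Timp3 and Timp4 given above are narrower, and fewer alternatives lay within them. Without the cluster led by Tgm1 and Gfap, an alternative added after the data were seen, the ratios were 5.88 for Timp1, -2.05 for Timp2, the only reversal, from 1 UMI, and -0.73 for Timp4. The remaining values outside the intervals set for this comparison were, for Timp1, 8.49 without the highest Scrublet scores and 5.01 with 10 CPM added. For Timp2 it was 1.48 with the unnamed clusters counted in, and for Timp3 -0.42 as a mean of per-cell CPM. For Timp4 they were -0.29 in male cells and -0.34 in cells with an Aldh1l1 UMI. Between injured classes, Timp1 in fibroblast-like over astrocyte-like cells (1.37) moved to 0.41 without the highest Scrublet scores and 0.59 in male cells. Timp2 in microglia or macrophage-like over astrocyte-like cells (3.36) moved to 2.96 and, per cell, 3.06. Timp3 in fibroblast-like over astrocyte-like cells (1.14) moved to 0.22 with no cell filter, 1.76 without the highest Scrublet scores, 1.59 in male cells and 1.40 per cell. Timp4 in astrocyte-like over ependymal-like cells (1.99) stayed between 1.98 and 2.15 in all 8 alternatives. In fibroblast-like cells, 2 alternatives added after the data were seen moved the injured over uninjured ratio. With no cell filter it went from 0.42 to -0.067 for Timp2 and from 0.96 to 0.040 for Timp3, and in the cluster that both libraries share at a resolution of 1.0 it went from 6.34 to 9.68 for Timp1 (0 uninjured UMIs), to -0.36 for Timp2 and to 0.16 for Timp3. The causes were not tested. Cells were clustered anew in the setting without the highest Scrublet scores, where 25 instead of 43 injured cells were fibroblast-like. The values of that setting thus rest on changed classes as well as on cells removed. Shares of cells with a UMI fell with a minimum of 2 UMIs, to 24.0 and 0% for Timp1, 11.2 and 0.588% for Timp2, 36.2 and 37.1% for Timp3 and 49.7 and 46.7% for Timp4, injured first. In the same order, cells thinned to 1000 gene UMIs gave 17.9 and 0%, 7.10 and 2.05%, 24.7 and 30.5%, and 34.1 and 38.0%. Genes past 2-fold in astrocyte-like cells numbered 2267, and 1203 at 50 CPM or more, 3772 with no filter, 1323 with 10 CPM added and 556 past 4-fold.

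Depth limits the uninjured microglia or macrophage-like, endothelial-like and ependymal-like values, which rest on 32, 26 and 31 cells. Their ratio intervals for Timp1 spanned 1 or had no upper bound.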
